A study of Mus musculus with 15 samples.

Results

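Livers of AAV8-null mice at mid pregnancy (8 days post-coitum, 8 dpc) were compared with livers of non-pregnant (NP) AAV8-null mice. By their labels these were 3 NP and 3 8 dpc libraries of the 15 in the series. All were whole livers of wild-type C57BL/6 females (C57BL/6N in the study's methods), which were young adult virgins when the experiment began. Every mouse of both groups, the NP controls included, had received by tail vein the empty AAV8.TBG.PI.Null.bGH virus, whose thyroxine-binding globulin (TBG) promoter acts in hepatocytes and here drives no p21. The 8 dpc mice received it before mating. The other libraries came from 16 dpc AAV8-null mice and from 8 dpc and 16 dpc mice given the same vector carrying p21 (AAV8-p21), an inhibitor of the cyclin-dependent kinases encoded by Cdkn1a. The labels number 3 samples in a group and do not name the animals, so p-values measure the spread between these samples.

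The maternal liver enlarges during rodent pregnancy, and hepatocytes, which are mostly quiescent in the adult, re-enter the cell cycle. Passage through mitosis needs cyclins A and B with Cdk1, the spindle and kinetochore proteins, and the ubiquitin ligase activator Cdc20, and the transcripts of these genes accumulate in G2 and M phases. Placental lactogens and growth hormone act on the liver through the JAK2 and STAT5 pathway, of which Socs2 and Cish are textbook targets.

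The 6 libraries held 12280709 to 15655604 counts assigned to genes. Values are given as CPM, the counts scaled to library sizes normalized by the trimmed mean of M-values, in the order of replicates 1, 2 and 3. Hepatocyte markers were abundant in every library, at 146368, 120689 and 135873 summed CPM at NP and 126193, 108475 and 115309 summed CPM at 8 dpc. One liver of each group stood apart from its own group. On the first 2 principal components, with 34.7% and 16.8% of the variance, the first NP liver lay beside the first and second 8 dpc livers. The third 8 dpc liver lay beside NP replicates 2 and 3. Whether the labels or the sampling hour of these 2 livers are as given was not tested, and every NP and 8 dpc value rests on the labels.

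**Figure D1:**
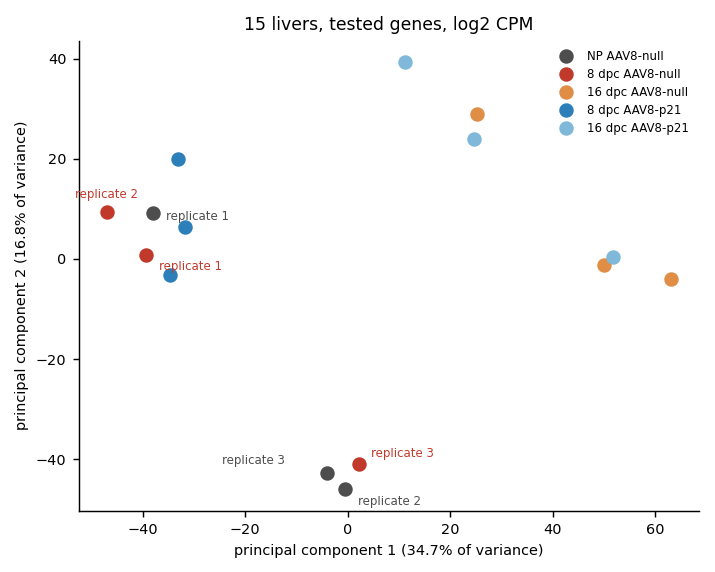
Each point is 1 of the 15 livers, placed by principal components 1 and 2 of log2 CPM over the genes tested, and coloured by group, with replicates numbered in the NP and 8 dpc AAV8-null groups. The first NP liver sits with the 8 dpc livers at the left, and the third 8 dpc liver sits with the other two NP livers at the bottom.

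Circadian transcripts followed the same division in part. Arntl, which encodes the clock activator BMAL1, was at 17.2, 1.71 and 1.40 CPM in the NP livers and 24.0, 25.4 and 8.06 CPM in the 8 dpc livers. Dbp, a clock output transcription factor with the opposite phase, was at 5.68, 86.3 and 58.0 CPM at NP and 3.43, 4.11 and 9.10 CPM at 8 dpc. The first NP liver thus had the low Dbp and high Arntl of the 8 dpc livers. Per2, a clock repressor, was lower in all 8 dpc livers, at 8.31, 30.8 and 38.2 CPM at NP and 0.64, 2.98 and 7.96 CPM at 8 dpc. Groups that do not overlap were a condition for naming Per2 by size, so that separation is no result. Of the core clock list, 3 of 15 members were lower at an unadjusted p under 0.05 and 0 higher, and their median log2 fold change was -0.37 (-0.074 with 0 higher and 4 lower without the third 8 dpc liver, and -0.67 with 2 higher and 4 lower without the first NP liver). Clock output genes had a median of -1.02, with 4 of 8 lower at that level (-1.53 with 0 higher and 6 lower without the third 8 dpc liver, and -1.34 with 1 higher and 5 lower without the first NP liver). Over all genes, 3.37% were lower and 3.23% higher at that level. Of all genes in the fit without the third 8 dpc liver, 5.21% were lower and 5.58% higher, and of those in the fit without the first NP liver 4.9% and 6.41%. Counts given without these livers are at the same level and stand against these shares. The hour of sampling is not given in the sources used here, and its part in the results was not tested. Heat shock genes summed to 4062, 1968 and 1944 CPM at NP and 1702, 2459.7 and 2376 CPM at 8 dpc, highest in the first NP liver. Their median was -0.41, and -0.50 with 0 higher and 0 lower without the third 8 dpc liver, and 0.22 with 0 higher and 0 lower without the first NP liver.

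A differentially expressed gene (DEG) was defined by an adjusted p under 0.05 and at least a 2-fold difference. By edgeR's quasi-likelihood test fitted to all 15 libraries, 0 of 12172 genes were DEGs between 8 dpc and NP (0.0% higher and 0.0% lower). The smallest adjusted p was 0.221. At an unadjusted p under 0.05 there were 803 genes (6.6%), with 393 higher (3.23%) and 410 lower (3.37%). DESeq2 called 53 DEGs on all 15 libraries (41 higher, 0.302%, and 12 lower, 0.0884%) and 72 on the 6 libraries (58 higher, 0.455%, and 14 lower, 0.11%). limma voom with sample weights called 883 (472 higher, 3.88%, and 411 lower, 3.38%), and gave the first NP liver a weight of 0.256 and the third 8 dpc liver 0.383, against 1.57 to 3.06 for the other livers of the comparison. Without the third 8 dpc liver edgeR called 91 DEGs (78 higher, 0.631%, and 13 lower, 0.105%), and without the first NP liver it called 2, both higher (0.0161%). The genes below are therefore described by their levels, their fitted log2 fold change (8 dpc minus NP) with its standard error (SE), and edgeR's unadjusted p. The median log2 fold change over all genes tested was -0.0065.

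Mitosis genes were well above their NP level in 2 of the 3 8 dpc livers. Mki67, the gene of the proliferation marker Ki67, was at 7.48, 1.10 and 2.45 CPM in the NP livers and 43.8, 45.4 and 4.11 CPM in the 8 dpc livers. Hmmr, which encodes a spindle-associated protein, was at 1.94, 0.305 and 0.909 CPM at NP and 13.6, 12.9 and 1.61 CPM at 8 dpc. The first and second 8 dpc livers were above every NP liver for both genes, whereas the third lay below the first NP liver. The log2 fold change was 3.09 (SE 0.90, unadjusted p = 0.0038 by edgeR, 4.14 without the first NP liver) for Mki67, with an adjusted p of 0.39 by edgeR. For Hmmr it was 3.16 (SE 0.94, unadjusted p = 0.0044 by edgeR, 3.95 without the first NP liver), and the adjusted p by edgeR was 0.39. Over 15 alternatives for Mki67, 2 gave an adjusted p under 0.05, limma voom with 0.002 and a log2 fold change of 4.45 and edgeR without the third 8 dpc liver with 0.049. Of 14 for Hmmr, 2 did, voom with 0.0043 and a log2 fold change of 4.37 and DESeq2 on the 6 libraries with 0.011. The highest adjusted p by edgeR was 1 for both, without the second NP liver. The exact two-sided permutation test on log2(CPM + 0.5), which cannot go below 0.1 with 3 against 3, gave p = 0.2 for Mki67 and p = 0.2 for Hmmr. In GRCm38, Mki67 lies at chr7:135689784-135716361 and Hmmr at chr11:40701395-40733422.

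Of the 35 mitosis genes listed, 34 passed the filter on low counts, and the remaining gene was Melk, at 0.277, 0.183 and 0 CPM at NP and 1.51, 1.55 and 0.052 CPM at 8 dpc. In edgeR without the third 8 dpc liver Melk passed the filter and had a log2 fold change of 3.24, and without the first NP liver one of 3.31. Melk could then pass through the 8 dpc livers where it was high, so no p-value is given for it. All 34 had a fitted log2 fold change above 0, from 0.55 to 4.13 with a median of 2.83. An unadjusted p under 0.05 was reached by 32, against 3.23% of all genes tested, and 5 had groups that did not overlap, against 4.69%. Because a gene could pass the filter through 3 libraries alone, members may have passed only through the group where they were high. Summed over the list, the level was 75.8, 25.1 and 28.0 CPM at NP and 383, 398 and 53.1 CPM at 8 dpc. The third 8 dpc liver was thus above NP replicates 2 and 3 and below NP replicate 1. The median was 3.36 with 34 of 35 higher and 0 lower without the third 8 dpc liver, and 3.94 with 34 of 35 higher and 0 lower without the first NP liver. Both of these counts include Melk. DESeq2 called 6 members higher on all 15 libraries (0.302% of all genes) and 12 on the 6 libraries (0.455%). limma voom with sample weights called 32 (3.88%). Without the third 8 dpc liver edgeR called 19 (0.631%), and without the first NP liver it called 0 (0.0161%).

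**Figure D2:**
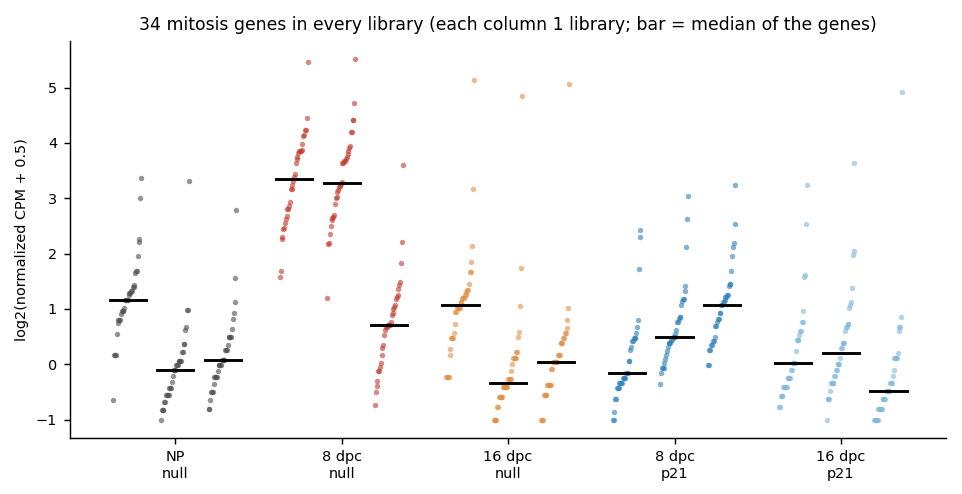
Each column is 1 library and each point 1 of the 34 mitosis genes, on the scale of log2(normalized CPM + 0.5), with a bar at the median of the genes. The first and second 8 dpc AAV8-null livers stand above all others, and the third lies near the first NP liver.

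Ect2, the exchange factor for RhoA that places the cleavage furrow, had the smallest p of the list. It was at 1.73, 0.67 and 0.35 CPM at NP and 18.4, 14.0 and 2.18 CPM at 8 dpc, a log2 fold change of 3.64 (SE 0.71, unadjusted p = 0.00014 by edgeR, 4.46 without the first NP liver). Kif20a, a kinesin of the central spindle, was at 1.73, 0.487 and 0.909 CPM at NP and 18.3, 20.8 and 2.08 CPM at 8 dpc, with 3.72 (SE 0.75, unadjusted p = 0.0002 by edgeR). Cenpf, a kinetochore protein, was at 1.25, 0.183 and 0.35 CPM at NP and 14.1, 11.97 and 1.40 CPM at 8 dpc, with 3.95 (SE 0.88, unadjusted p = 0.00048 by edgeR, 5.08 without the first NP liver). In these 3 genes each 8 dpc liver was above each NP liver, the third by a small margin. They were also named by size, which required groups that do not overlap, so this separation is no result. Spag5, which encodes the spindle protein astrin, was at 0.97, 0.426 and 0.21 CPM at NP and 4.95, 3.99 and 0.936 CPM at 8 dpc, and its groups overlapped. Cdc20, the activator of the anaphase-promoting complex, had the largest fitted difference among the listed genes, 4.13 (SE 1.06, unadjusted p = 0.0015 by edgeR, 5.60 without the first NP liver), from 2.15, 0.122 and 0.559 CPM at NP and 21.5, 26.0 and 1.77 CPM at 8 dpc. Ccnb1, encoding cyclin B1, was at 1.25, 0.0609 and 0.489 CPM at NP and 8.96, 8.16 and 1.144 CPM at 8 dpc. The kinase partner Cdk1 was at 4.16, 1.04 and 1.40 CPM at NP and 17.2, 17.7 and 3.07 CPM at 8 dpc. In both genes the first NP liver lay above the third 8 dpc liver, as for Mki67. Other mitotic genes, outside the list, were named for their size and for groups that do not overlap, so their lack of overlap is no result. Knl1, a kinetochore scaffold, was at 0.208, 0.366 and 0.28 CPM at NP and 4.25, 3.63 and 0.624 CPM at 8 dpc. Knstrn, a kinetochore and spindle protein, was at 1.80, 0.487 and 0.42 CPM at NP and 12.1, 13.5 and 3.07 CPM at 8 dpc. The spindle checkpoint kinase Ttk was at 0.277, 0 and 0.21 CPM at NP and 3.49, 3.81 and 0.572 CPM at 8 dpc. Esco2, which acetylates cohesin in S phase, was at 0.139, 0.244 and 0.28 CPM at NP and 5.88, 4.05 and 0.416 CPM at 8 dpc. Bub1 and Ccnf of the list also did not overlap, with Ccnf at 9.77, 9.44 and 6.43 CPM at NP and 14.0, 11.97 and 11.7 CPM at 8 dpc.

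Because these genes were higher together, their promoters were read from the RefSeq windows of GRCm38.p6, each of which spans an annotated start. There were 32 windows for 30 of the 35 genes. The cell cycle genes homology region (CHR), TTTGAA on either strand, occurred in 25 of the 32 windows (78.1%), against 17.9% of all 32851 windows. The CCAAT box, CCAAT on either strand, occurred in 26 (81.2%), against 37.4% of all windows. Both were present in 23 of 32 (71.9%) and in 6.95% of all windows. CHR elements and CCAAT boxes are known from G2/M genes, where the DREAM complex and NF-Y bind them. The matches are a description of the letters and no evidence of binding here. Matches of the 2 motifs can share at most 1 base. For comparison, the E-box CACGTG of clock genes occurred in 1 of the 32 mitosis windows, in 4 of 16 core clock windows and in 7.15% of all. The 160 bases before the start are shown for 6 genes whose stretch holds both motifs, 5′ to 3′ along the gene's strand, with every CHR and CCAAT match in capitals (TTCAAA and ATTGG are the other strand).
Mki67 (chr7:135716380-135716539, strand -): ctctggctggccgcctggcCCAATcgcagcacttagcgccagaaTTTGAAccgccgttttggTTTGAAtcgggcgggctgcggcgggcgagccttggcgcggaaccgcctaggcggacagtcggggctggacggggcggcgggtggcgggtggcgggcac
Ect2 (chr3:27153879-27154038, strand -): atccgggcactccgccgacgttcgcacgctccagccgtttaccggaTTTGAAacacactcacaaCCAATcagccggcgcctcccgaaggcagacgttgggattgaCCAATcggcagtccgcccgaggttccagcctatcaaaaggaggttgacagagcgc
Cdc20 (chr4:118437344-118437503, strand -): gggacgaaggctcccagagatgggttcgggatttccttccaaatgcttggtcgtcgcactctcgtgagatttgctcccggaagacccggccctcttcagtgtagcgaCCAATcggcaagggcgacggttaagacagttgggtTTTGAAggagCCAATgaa
Cdk1 (chr10:69352913-69353072, strand -): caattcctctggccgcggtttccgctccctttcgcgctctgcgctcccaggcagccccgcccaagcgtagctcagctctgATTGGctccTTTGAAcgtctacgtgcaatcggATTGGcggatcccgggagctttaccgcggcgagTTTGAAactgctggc
Prc1 (chr7:80294316-80294475, strand +): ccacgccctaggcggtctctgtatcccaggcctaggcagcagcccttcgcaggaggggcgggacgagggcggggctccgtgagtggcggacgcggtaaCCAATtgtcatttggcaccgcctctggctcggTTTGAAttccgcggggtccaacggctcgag
Top2a (chr11:99024190-99024349, strand -): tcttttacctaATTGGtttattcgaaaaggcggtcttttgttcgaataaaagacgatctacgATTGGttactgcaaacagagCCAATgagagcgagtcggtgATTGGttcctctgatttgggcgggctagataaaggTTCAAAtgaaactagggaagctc
Mki67 carries 2 CHR matches in this stretch, as does Cdk1, and Top2a carries 4 CCAAT matches. Prc1, which bundles the central spindle, was at 1.94, 0.548 and 0.559 CPM at NP and 13.9, 14.6 and 1.20 CPM at 8 dpc. Top2a, the topoisomerase that untangles sister chromatids, was at 3.39, 0.792 and 0.909 CPM at NP and 17.0, 20.9 and 1.82 CPM at 8 dpc.

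Mitosis genes were lower again at 16 dpc. Between 8 and 16 dpc in AAV8-null livers, 21 of the 34 members fell and 1, Ccnf, rose (edgeR DEGs, against 2.88% of all genes falling and 2.53% rising). Their median difference was -3.12 on the log2 scale. This contrast uses the same 8 dpc livers, and its 658 DEGs over all genes became 248 to 1039 when single livers were left out, with 1039 without the third 8 dpc liver. The count of mitosis genes that fell became 1 without the first 8 dpc liver, and likewise without the second 8 dpc liver or the second or the third 16 dpc liver, 21 without the first 16 dpc liver and 33 without the third 8 dpc liver, the median ranging from -4.29 to -2.77. The call of Ccnf, the F-box protein cyclin F, was lost in 6 of 6 such fits. The summed level was 92.8, 43.1 and 50.8 CPM at 16 dpc. Hmmr fell by 3.44 on the log2 scale (SE 0.98, adjusted p = 0.049 by edgeR), and Kif20a fell by 3.38 (SE 0.75, adjusted p = 0.017 by edgeR). Without single livers the adjusted p by edgeR reached 0.15 for Hmmr and 0.081 for Kif20a. Mki67 differed by -3.01 (adjusted p = 0.059 by edgeR) and did not pass. In 8 dpc AAV8-p21 livers the list summed to 27.3, 48.6 and 66.3 CPM, below the first and second AAV8-null livers of that day. edgeR called 0 of the 34 members between the vectors at 8 dpc (3 of all genes, 0.0246%, were lower in AAV8-p21), with a median log2 fold change (AAV8-p21 minus AAV8-null) of -2.61, and called 13 lower in AAV8-p21 when the third AAV8-null liver was left out, where 0.299% of all genes were lower and 0.00809% higher.

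Replication genes had a lower median than mitosis genes. Of 34 members tested, 29 had a log2 fold change above 0, 7 with an unadjusted p under 0.05 (over all genes, 49.0% and 3.23%), and the median was 0.59 (0.93 with 18 higher and 0 lower without the third 8 dpc liver, and 0.90 with 15 higher and 0 lower without the first NP liver). Prim1, the primase subunit, was at 1.80, 2.80 and 1.26 CPM at NP and 6.11, 5.24 and 2.70 CPM at 8 dpc. Mcm5, of the replicative helicase, was at 1.80, 0.792 and 1.40 CPM at NP and 4.77, 6.37 and 0.676 CPM at 8 dpc. Uhrf1, which maintains DNA methylation after replication, was at 0.485, 0.122 and 0.28 CPM at NP and 2.04, 3.63 and 0.156 CPM at 8 dpc. The third 8 dpc liver lay within the NP range for Prim1 and Uhrf1 and below it for Mcm5. Of the D cyclins, their kinases and inhibitors, Ccnd2 (cyclin D2) was lower without overlap, at 6.86, 11.2 and 8.88 CPM at NP and 6.34, 4.53 and 4.84 CPM at 8 dpc, with a log2 fold change of -0.78 (SE 0.30, unadjusted p = 0.021 by edgeR). Ccnd1 (cyclin D1) was at 111, 60.9 and 56.1 CPM at NP and 72.6, 116 and 95.7 CPM at 8 dpc, and the groups overlapped. The kinase inhibitors Cdkn2c and Cdkn1b were higher without overlap. Cdkn2c was at 6.51, 5.85 and 4.82 CPM at NP and 11.9, 12.4 and 6.92 CPM at 8 dpc, with 0.86 (SE 0.27, unadjusted p = 0.0068 by edgeR). Cdkn1b was at 16.3, 13.6 and 14.7 CPM at NP and 21.01, 19.8 and 19.9 CPM at 8 dpc, with 0.45 (SE 0.23, unadjusted p = 0.071 by edgeR). Endogenous Cdkn1a was at 33.7, 5.12 and 3.29 CPM at NP and 27.2, 16.5 and 33.4 CPM at 8 dpc, the first NP liver being as high as the 8 dpc livers. Of the p53 list, 1 of 16 members, Btg2, was higher at an unadjusted p under 0.05, against 3.23% of all genes (median 0.39, 0.30 with 1 higher and 0 lower without the third 8 dpc liver, and 0.38 with 4 higher and 0 lower without the first NP liver).

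Beyond the cell cycle, Prtn3, a granule protease of myeloid cells, had 0 counts in each NP liver and was at 2.503, 17.3 and 0.312 CPM at 8 dpc, led by the second liver. Set against a limit of 3 counts per NP library (0.2 CPM on average), its 8 dpc mean was at least 33.5-fold higher (unadjusted p = 0.0005, adjusted p = 0.27 by edgeR). Without the second liver the 8 dpc mean was 1.41 CPM, at least 7.03-fold higher. From 8 to 16 dpc it fell by 4.98 on the log2 scale (SE 1.36, adjusted p = 0.047 by edgeR), with 0.0891, 0.0833 and 0.445 CPM at 16 dpc. The adjusted p by edgeR was 0.24 without the second 8 dpc liver, and the call was lost in 5 of 6 fits without single livers.

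Of 12 neutrophil markers, all at low levels, 4 passed the filter on counts. Their NP levels were low, so they could pass through the 8 dpc group alone, and no count or median over them is given. S100a8 and S100a9 encode the 2 chains of calprotectin. S100a8 was at 0.485, 0.183 and 0.14 CPM at NP and 2.79, 2.02 and 4.89 CPM at 8 dpc, with a log2 fold change of 3.56 (SE 0.63, unadjusted p = 5.5e-05 by edgeR, 4.25 without the first NP liver) and no overlap. S100a9 was at 1.04, 0.122 and 0.28 CPM at NP and 4.37, 2.32 and 6.71 CPM at 8 dpc, with 3.22 (SE 0.75, unadjusted p = 0.00069 by edgeR, 4.45 without the first NP liver). The third 8 dpc liver was the highest for both. S100a8 was named by size, which required groups that do not overlap. Summed over the 12 neutrophil markers, the level was 4.29, 2.01 and 3.08 CPM at NP and 14.1, 7.62 and 22.0 CPM at 8 dpc. The defining marker Ly6g had no count at NP and 0.0582, 0.0595 and 0.052 CPM at 8 dpc. Immediate early genes included 4 of 14 higher at an unadjusted p under 0.05, against 3.23% of all genes (median 0.60, 0.57 with 5 higher and 0 lower without the third 8 dpc liver, and 0.57 with 5 higher and 0 lower without the first NP liver). Fos was at 0.9, 0.792 and 1.19 CPM at NP and 4.48, 4.23 and 9.05 CPM at 8 dpc, with 2.62 (SE 0.52, unadjusted p = 0.00016 by edgeR) and no overlap. Egr1 was at 14.1, 9.93 and 5.73 CPM at NP and 47.3, 17.4 and 26.5 CPM at 8 dpc, again with no overlap, and Junb at 17.5, 8.96 and 8.53 CPM at NP and 41.3, 37.3 and 10.4 CPM at 8 dpc.

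**Figure D3:**
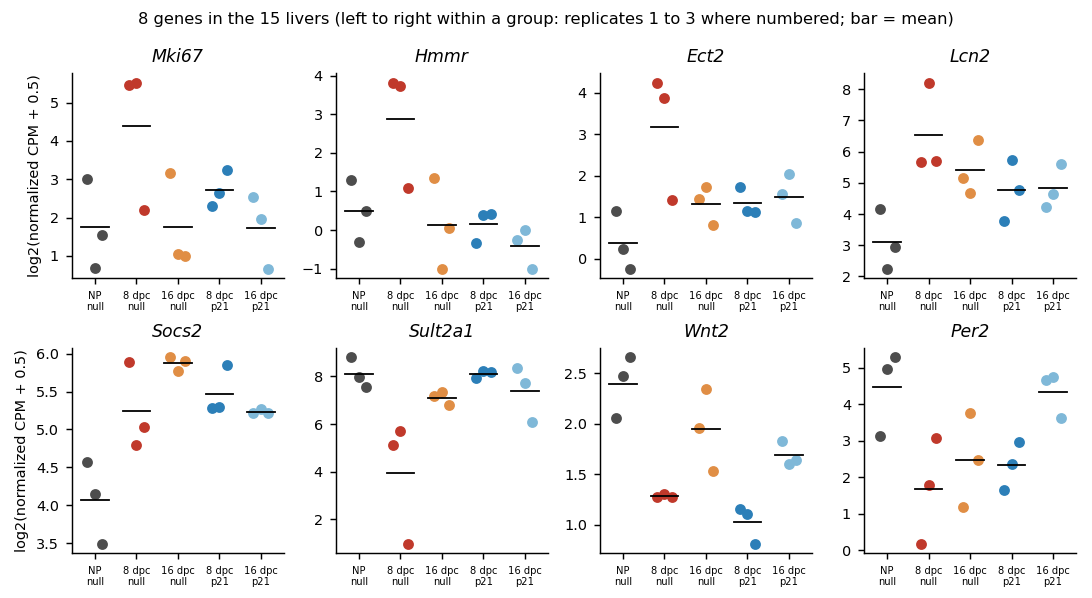
Points are the 15 livers in 5 groups for 8 genes, on the scale of log2(normalized CPM + 0.5), with a bar at the group mean. The NP and 8 dpc AAV8-null livers do not overlap for Ect2, Lcn2, Socs2, Sult2a1, Wnt2 and Per2, and they overlap for Mki67 and Hmmr through the third 8 dpc liver. Ect2, Lcn2, Sult2a1 and Per2 were named by a rule that required no overlap.

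Acute phase genes, which hepatocytes express in response to interleukin-6 and STAT3, were higher as a group. All 20 had a log2 fold change above 0 (49.0% of all genes did), 12 had an unadjusted p under 0.05 against 3.23% of all genes, and 7 did not overlap against 4.69%. The median was 0.94 (1.01 with 13 higher and 0 lower without the third 8 dpc liver, and 1.15 with 14 higher and 0 lower without the first NP liver). Lcn2, the siderophore-binding lipocalin, was at 17.3, 4.26 and 7.20 CPM in the NP livers and 49.9, 297 and 51.1 CPM in the 8 dpc livers. Its log2 fold change was 3.79 (SE 0.82, unadjusted p = 0.00035 by edgeR, 2.40 without the second 8 dpc liver and 4.53 without the first NP liver), and DESeq2 on all 15 libraries gave an adjusted p of 0.0044. Apcs, serum amyloid P, was at 135, 49.0 and 55.9 CPM at NP and 248, 464 and 169 CPM at 8 dpc, with 1.88 (SE 0.45, unadjusted p = 0.00089 by edgeR, 2.49 without the first NP liver). Lbp, the lipopolysaccharide-binding protein, was at 124, 106 and 109 CPM at NP and 169.8, 179 and 168 CPM at 8 dpc, with 0.61 (SE 0.16, unadjusted p = 0.0014 by edgeR). In all 3 genes every 8 dpc liver was above every NP liver, which for Lcn2 was a condition of being named by size. Saa1 and Saa2 were far above the NP range in the second 8 dpc liver alone, without which the log2 fold change of Saa1 was 0.48. Saa1 was at 36.3, 10.97 and 19.1 CPM at NP and 42.1, 869 and 19.6 CPM at 8 dpc, and Saa2 at 20.0, 4.20 and 8.88 CPM at NP and 18.8, 596 and 7.59 CPM at 8 dpc, and these near-identical copies may share reads. Stat3 itself, a gene picked after its values were seen, was at 69.2, 63.5 and 74.8 CPM at NP and 165, 144 and 106 CPM at 8 dpc, with 0.998 (SE 0.23, unadjusted p = 0.00066 by edgeR) and an adjusted p of 0.015 by DESeq2 on all 15 libraries.

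Other secreted hepatocyte proteins were also higher in part. Of the complement list, 20 of 22 members were above 0 and 7 had an unadjusted p under 0.05, against 49.0% and 3.23% of all genes (median 0.29, 0.47 with 9 higher and 0 lower without the third 8 dpc liver, and 0.50 with 9 higher and 0 lower without the first NP liver). C3, the central component, was at 7647, 8166 and 7875 CPM at NP and 12394, 13943 and 10508 CPM at 8 dpc, with no overlap. C8a, of the membrane attack complex, was at 138, 147 and 176 CPM at NP and 406, 502 and 196 CPM at 8 dpc, with 1.26 (SE 0.33, unadjusted p = 0.0016 by edgeR). The 3 fibrinogen chains accounted for the coagulation members that were higher at this level (median of the list 0.20, 0.33 with 5 higher and 2 lower without the third 8 dpc liver, and 0.22 with 4 higher and 2 lower without the first NP liver). Fga was at 2971, 2300.1 and 2391 CPM at NP and 5015, 6418 and 3616 CPM at 8 dpc, with 0.97 (SE 0.29, unadjusted p = 0.005 by edgeR). Fgg was at 2897, 2075 and 2077 CPM at NP and 4722, 5601 and 2769 CPM at 8 dpc and Fgb at 3643, 2925 and 2865 CPM at NP and 5142, 6445 and 3482 CPM at 8 dpc, and the third 8 dpc liver lay inside the NP range for both. F8, which endothelial cells make, was at 7.00, 26.4 and 32.6 CPM at NP and 8.56, 6.07 and 10.8 CPM at 8 dpc, with -1.37 (SE 0.43, unadjusted p = 0.006 by edgeR) and the first NP liver inside the 8 dpc range. Metallothioneins, which bind zinc and respond to acute phase signals, were higher without overlap. Mt2 was at 94.8, 94.5 and 98.4 CPM at NP and 574, 324 and 223 CPM at 8 dpc, with 1.96 (SE 0.53, unadjusted p = 0.0021 by edgeR), and Mt1 was at 213, 193 and 199.7 CPM at NP and 688, 744 and 377 CPM at 8 dpc, with 1.58 (SE 0.45, unadjusted p = 0.0034 by edgeR). The median of the redox list that holds them was 0.083 (0.014 with 2 higher and 0 lower without the third 8 dpc liver, and 0.29 with 3 higher and 0 lower without the first NP liver).

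Several growth hormone and prolactin targets were higher at 8 dpc. Of 15 members of this signalling list tested, 6 were higher and 2 lower at an unadjusted p under 0.05 (3.23% and 3.37% of all genes), with a median of 0.25 (0.36 with 6 higher and 2 lower without the third 8 dpc liver, and 0.62 with 7 higher and 2 lower without the first NP liver). Socs2, a feedback inhibitor of growth hormone signalling, was at 23.2, 17.2 and 10.8 CPM in the NP livers and 59.1, 27.2 and 32.2 CPM in the 8 dpc livers, with a log2 fold change of 1.21 (SE 0.30, unadjusted p = 0.0011 by edgeR). Cish, a related inhibitor, was at 10.5, 4.87 and 6.92 CPM at NP and 22.9, 17.3 and 9.94 CPM at 8 dpc, with 1.17 (SE 0.31, unadjusted p = 0.0017 by edgeR). Prlr, the prolactin receptor, was at 449, 217 and 248.9 CPM at NP and 649, 609 and 331 CPM at 8 dpc. Esr1, estrogen receptor alpha, was at 25.1, 22.5 and 26.6 CPM at NP and 40.5, 46.0 and 31.9 CPM at 8 dpc. Igf1, the main endocrine product of growth hormone in liver, was at 516, 352 and 406 CPM at NP and 697, 636 and 507 CPM at 8 dpc. Esr1 and Socs2 did not overlap between the groups, and Prlr and Igf1 overlapped through NP replicate 1 and 8 dpc replicate 3. Igfbp2 was at 449.9, 824 and 694 CPM at NP and 244, 154 and 454 CPM at 8 dpc, with -1.21 (SE 0.37, unadjusted p = 0.0058 by edgeR). Bcl6, a repressor that growth hormone reduces, was at 9.42, 20.0 and 12.5 CPM at NP and 2.39, 3.04 and 9.36 CPM at 8 dpc, with -1.50 (SE 0.52, unadjusted p = 0.012 by edgeR, -2.36 without the third 8 dpc liver). Among receptors for growth factors, Egfr was higher without overlap, at 93.3, 101 and 151 CPM at NP and 344, 261 and 157 CPM at 8 dpc, with 1.142 (SE 0.43, unadjusted p = 0.019 by edgeR).

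Sex-biased genes differed in both directions. Of the female-biased list, 4 of 18 members were higher and 2 lower at an unadjusted p under 0.05, against 3.23% and 3.37% of all genes (median 0.00092, 0.073 with 6 higher and 3 lower without the third 8 dpc liver, and 0.17 with 7 higher and 2 lower without the first NP liver). Sult2a1, a sulfotransferase for steroids and bile acids, was at 445, 251 and 186 CPM in the NP livers and 33.99, 51.1 and 1.46 CPM in the 8 dpc livers. Its log2 fold change was -3.35 (SE 0.83, unadjusted p = 0.0012 by edgeR, -4.05 without the second 8 dpc liver), the lowest among the genes named by size. Sult2a2 and Sult2a3 are close copies, so reads may be split among them. Sult2a2 was at 182, 79.0 and 78.8 CPM at NP and 69.0, 77.0 and 3.33 CPM at 8 dpc and Sult2a3 at 15.2, 3.17 and 2.45 CPM at NP and 1.05, 1.91 and 0 CPM at 8 dpc, with a log2 fold change of -2.83 for Sult2a3 and -1.53 without the first NP liver. The third 8 dpc liver was lowest for all 3. In 8 dpc AAV8-p21 livers Sult2a1 was at 243, 297 and 290.5 CPM, inside the NP range, and the difference between the vectors was 3.26 on the log2 scale (SE 0.83, adjusted p = 0.41 by edgeR), which did not pass. Cyp3a44 was at 205, 55.9 and 60.3 CPM at NP and 573, 499.8 and 117 CPM at 8 dpc, and Slc22a26, an organic anion transporter, at 157, 99.6 and 140.0 CPM at NP and 324, 380.3 and 142 CPM at 8 dpc. A1bg, a secreted protein of female liver, ranged widely, at 1826, 6.52 and 13.5 CPM at NP and 6629, 8726 and 662 CPM at 8 dpc. The first NP liver was thus between the third and the other 8 dpc livers for A1bg, and without it edgeR gave an adjusted p of 0.015. Of the male-biased list, 5 of 15 were higher and 0 lower, against the same shares (median 0.75, 1.02 with 6 higher and 1 lower without the third 8 dpc liver, and 0.77 with 6 higher and 0 lower without the first NP liver). Cyp4a12a, a fatty acid hydroxylase, was at 0.139, 0.305 and 0.14 CPM at NP and 6.40, 5.54 and 0.624 CPM at 8 dpc, with 4.34 (SE 0.96, unadjusted p = 0.00043 by edgeR), and may share reads with its near copy Cyp4a12b. Hsd3b5 was at 0.346, 0 and 0.0699 CPM at NP and 2.15, 1.85 and 0.104 CPM at 8 dpc, and Susd4 at 3.46, 2.74 and 4.68 CPM at NP and 6.23, 7.68 and 5.05 CPM at 8 dpc.

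Endothelial markers were lower at 8 dpc, by as much without either liver that stood apart. All 16 had a log2 fold change below 0 (51.0% of all genes did), 13 with an unadjusted p under 0.05 against 3.37% of all genes, and 5 did not overlap against 5.52%. The median was -0.84 (-1.005 with 0 higher and 12 lower without the third 8 dpc liver, and -1.04 with 0 higher and 15 lower without the first NP liver). Summed, they were at 323, 532 and 517 CPM at NP and 295, 219 and 304 CPM at 8 dpc. In whole liver, fewer endothelial cells and less RNA per cell cannot be told apart. Wnt2, a ligand that sinusoidal endothelium provides to pericentral hepatocytes, was at 3.67, 5.06 and 5.80 CPM in the NP livers and 1.92, 1.96 and 1.92 CPM in the 8 dpc livers. Its log2 fold change was -1.32 (SE 0.27, unadjusted p = 0.00023 by edgeR), and DESeq2 on all 15 libraries gave an adjusted p of 0.011. Ehd3, an endocytic protein of sinusoidal endothelium, was at 64.0, 77.9 and 71.3 CPM at NP and 47.3, 33.1 and 47.9 CPM at 8 dpc, with -0.73 (SE 0.17, unadjusted p = 0.00067 by edgeR). The scavenger receptors Stab2 and Stab1 were also lower. Stab2 was at 30.1, 60.0 and 55.9 CPM at NP and 33.9, 24.2 and 27.6 CPM at 8 dpc and Stab1 at 29.4, 48.2 and 48.8 CPM at NP and 22.6, 17.8 and 31.1 CPM at 8 dpc, the groups overlapping through the first NP liver. The smallest unadjusted p of the whole comparison belonged to Lrrc32, which encodes GARP, the surface receptor of latent TGF-beta. Lrrc32 was at 14.0, 9.20 and 10.1 CPM at NP and 5.59, 4.41 and 5.10 CPM at 8 dpc, with -1.14 (SE 0.19, unadjusted p = 3.2e-05 by edgeR). The junctional protein gene Tmem204 was at 7.96, 12.1 and 10.2 CPM at NP and 4.71, 4.05 and 6.24 CPM at 8 dpc, and Cavin2, of caveolae, at 11.6, 17.8 and 20.1 CPM at NP and 7.80, 5.84 and 9.41 CPM at 8 dpc. These 3 genes were picked after their values were seen. Between 8 and 16 dpc, 1 of the 16 endothelial markers, Pecam1, rose, against 2.53% of all genes (edgeR DEGs), with a median of 0.75. Pecam1, the adhesion molecule CD31, differed by 1.16 on the log2 scale (adjusted p = 0.032 by edgeR), and by 0.79 to 1.39 without single livers, with the call lost in 4 of 6 fits (adjusted p up to 0.16 by edgeR).

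Of the stellate and collagen markers, 5 of 18 were lower at an unadjusted p under 0.05 (3.37% of all genes), with a median of -0.46 in all livers, against -0.22 with 0 higher and 4 lower without the third 8 dpc liver, and -0.21 with 0 higher and 4 lower without the first NP liver. Lrat, which esterifies retinol for storage, was at 20.4, 15.05 and 15.3 CPM at NP and 12.98, 5.78 and 7.28 CPM at 8 dpc, with -0.96 (SE 0.34, unadjusted p = 0.013 by edgeR). Colec11, a collectin, was at 33.9, 25.9 and 26.9 CPM at NP and 24.9, 15.9 and 14.3 CPM at 8 dpc, with -0.65 (SE 0.22, unadjusted p = 0.011 by edgeR). Kupffer and macrophage markers had a median of 0.054, with 0 higher and 1 lower of 16 at an unadjusted p under 0.05, against 3.23% and 3.37% of all genes (0.27 with 0 higher and 1 lower without the third 8 dpc liver, and 0.28 with 0 higher and 2 lower without the first NP liver). The lower one, the mannose receptor Mrc1, is also made by sinusoidal endothelium and was at 26.7, 54.6 and 67.3 CPM at NP and 36.7, 25.8 and 34.4 CPM at 8 dpc. Cd207, the langerin gene, was lower without overlap, at 15.6, 3.17 and 1.82 CPM at NP and 1.16, 1.25 and 0.52 CPM at 8 dpc, with a log2 fold change of -2.81 (SE 0.68, unadjusted p = 0.00093 by edgeR, -1.36 without the first NP liver). Lack of overlap was a condition for naming Cd207 by size and is no result. Lymphocyte markers had a median of -0.013 with none at an unadjusted p under 0.05 (0.056 with 0 higher and 0 lower without the third 8 dpc liver, and 0.04 with 0 higher and 0 lower without the first NP liver). Erythroid markers had one of 0.13, also with none (0.28 with 0 higher and 0 lower without the third 8 dpc liver, and 0.29 with 3 higher and 0 lower without the first NP liver). Hepatocyte markers had a median of -0.23, and the transthyretin gene Ttr was lower at 6765, 3803 and 3224 CPM at NP and 2824, 2502 and 2249 CPM at 8 dpc, with -0.86 (SE 0.33, unadjusted p = 0.02 by edgeR). Of 8 bile duct markers tested, 3 were above 0 (49.0% of all genes) and 5 below, with a median of -0.22. At an unadjusted p under 0.05, 1 was higher and 0 lower, against 3.23% and 3.37% of all genes. The median was -0.12 with 1 higher and 1 lower without the third 8 dpc liver, and -0.19 with 3 higher and 1 lower without the first NP liver. The higher one, the hepatobiliary factor Onecut1, did not overlap, at 8.87, 8.53 and 13.6 CPM at NP and 26.8, 22.3 and 22.8 CPM at 8 dpc, with 1.22 (SE 0.41, unadjusted p = 0.01 by edgeR). Krt19 was at 1.45, 0.487 and 0.629 CPM at NP and 0.233, 0.595 and 0.624 CPM at 8 dpc. Of the 12 pancreas and adipose genes, Cela1 alone passed the filter, at 11.8, 3.90 and 6.36 CPM at NP and 23.5, 21.7 and 5.15 CPM at 8 dpc.

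**Figure D4:**
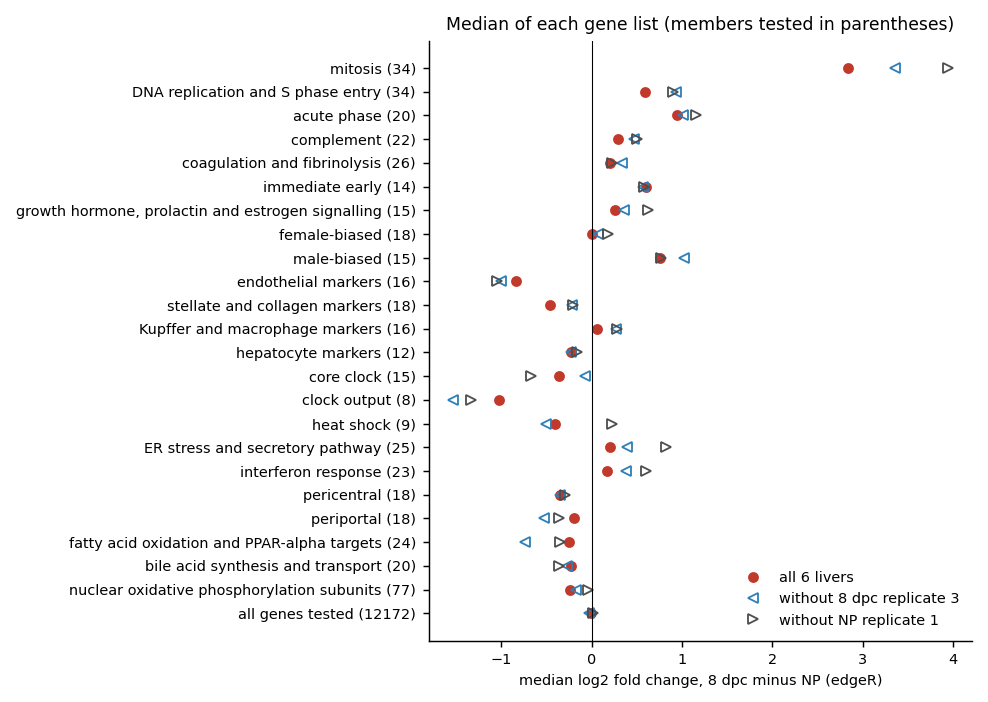
Each row is a gene list, with the median log2 fold change (8 dpc minus NP, edgeR) of its tested members in all 6 livers (filled circles) and with either liver that stood apart left out (triangles). Of the lists drawn, mitosis lies farthest to the right and clock output and endothelial markers farthest to the left, and heat shock changes side without the first NP liver.

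Of the pericentral list, 3 of 18 were lower at an unadjusted p under 0.05 and 0 higher, against 3.37% and 3.23% of all genes (median -0.36, -0.35 with 0 higher and 3 lower without the third 8 dpc liver, and -0.30 with 0 higher and 4 lower without the first NP liver). Glul, the glutamine synthetase of the last pericentral cell layer, was at 912, 1090.0 and 821 CPM in the NP livers and 626, 622 and 631 CPM in the 8 dpc livers. The groups did not overlap, with a log2 fold change of -0.59 (SE 0.18, unadjusted p = 0.0048 by edgeR). The Wnt targets Nkd1 and Tnfrsf19 overlapped between the groups. Nkd1 was at 6.03, 5.54 and 3.57 CPM at NP and 3.61, 3.63 and 2.55 CPM at 8 dpc, and Tnfrsf19 at 2.56, 6.34 and 4.55 CPM at NP and 1.46, 0.834 and 3.28 CPM at 8 dpc. Axin2, another Wnt target, was at 2.56, 6.27 and 7.27 CPM at NP and 8.26, 7.50 and 6.76 CPM at 8 dpc. The periportal list had a median of -0.19, with 1 higher and 2 lower of 18, against the same shares (-0.53 with 1 higher and 4 lower without the third 8 dpc liver, and -0.36 with 1 higher and 4 lower without the first NP liver). Hsd17b6, a retinol and steroid dehydrogenase, was at 184, 481 and 361 CPM at NP and 122, 69.5 and 127 CPM at 8 dpc, with -1.69 (SE 0.54, unadjusted p = 0.0072 by edgeR). Cyp17a1, the steroid 17-hydroxylase, was at 103, 161 and 235 CPM at NP and 53.7, 57.1 and 115 CPM at 8 dpc. Cyp2a5, a coumarin hydroxylase, was lower without overlap at 479, 932 and 1357 CPM at NP and 259, 254 and 215 CPM at 8 dpc, with -1.93 (SE 0.74, unadjusted p = 0.02 by edgeR). Lack of overlap was a condition for naming Cyp2a5 by size and is no result. Over the P450 families 1 to 3, 4 were higher and 4 lower of 45 at that level, against the same shares (median 0.016, 0.22 with 12 higher and 4 lower without the third 8 dpc liver, and 0.059 with 7 higher and 4 lower without the first NP liver).

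Fatty acid oxidation and PPAR-alpha targets had 22 of 24 below 0 (51.0% of all genes) but 0 at an unadjusted p under 0.05 (3.37%), with a median of -0.25. They summed to 16735, 23281 and 20121 CPM at NP and 11642, 9103 and 30536 CPM at 8 dpc, the third 8 dpc liver being the highest of the 6. The median was -0.74 with 0 higher and 6 lower without the third 8 dpc liver, and -0.35 with 0 higher and 1 lower without the first NP liver, against 5.21% of all genes lower without the third 8 dpc liver. Angptl4, a lipoprotein lipase inhibitor, was at 249.6, 240.2 and 251 CPM at NP and 179, 131 and 173 CPM at 8 dpc with no overlap. Nuclear genes of the respiratory chain were below 0 in 75 of 77, against 51.0% of all genes, by a median of -0.24. None of these was lower at an unadjusted p under 0.05. Groups did not overlap in 14 of those below 0, against 5.52% of all genes. The median was -0.18 without the third 8 dpc liver. Without the first NP liver 32 were above 0 (51.2% of all genes), and the median was -0.044. Cytosolic ribosomal protein genes had a median of -0.14, and 0.067 without that liver. Bile acid genes had a median of -0.23 with none at that level in either direction (-0.28 with 1 higher and 4 lower without the third 8 dpc liver, and -0.37 with 1 higher and 3 lower without the first NP liver). Cyp7a1, the rate-limiting enzyme of bile acid synthesis, was at 72.5, 105 and 211 CPM at NP and 54.9, 154 and 34.3 CPM at 8 dpc. Cholesterol genes had a median of -0.07 (0.32 with 1 higher and 0 lower without the third 8 dpc liver, and 0.052 with 0 higher and 0 lower without the first NP liver) and lipogenic genes one of 0.16. Acacb, the mitochondrial acetyl-CoA carboxylase, was at 29.5, 53.7 and 65.2 CPM at NP and 99.9, 109 and 64.6 CPM at 8 dpc. Hacl1, which shortens branched fatty acids and was picked after its values were seen, was higher without overlap at 372, 306 and 290.1 CPM at NP and 974, 788 and 586 CPM at 8 dpc, with 1.28 (SE 0.26, unadjusted p = 0.00018 by edgeR) and an adjusted p of 0.0013 by DESeq2 on all 15 libraries. Interferon-response genes were above 0 in 21 of 23 (49.0% of all genes) with none at an unadjusted p under 0.05 (median 0.17, 0.38 with 3 higher and 0 lower without the third 8 dpc liver, and 0.60 with 3 higher and 0 lower without the first NP liver).

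Genes that the study followed for glucose handling overlapped between 8 dpc and NP. The sugar transporter Slc45a3 was at 46.1, 18.7 and 28.5 CPM in the NP livers and 42.8, 46.0 and 43.6 CPM in the 8 dpc livers. The log2 fold change was 0.50 (SE 0.37, unadjusted p = 0.2 by edgeR). Sgk1, a kinase that promotes glucose uptake, was at 12.7, 27.2 and 23.0 CPM at NP and 9.72, 8.75 and 26.8 CPM at 8 dpc, with -0.47 (SE 0.43, unadjusted p = 0.29 by edgeR, -1.19 without the third 8 dpc liver). H6pd, the pentose phosphate dehydrogenase of the endoplasmic reticulum, was at 295, 293 and 313 CPM at NP and 531, 443 and 282 CPM at 8 dpc, with 0.48 (SE 0.23, unadjusted p = 0.055 by edgeR). Pdk4, which inhibits pyruvate dehydrogenase, was at 34.4, 21.8 and 52.4 CPM at NP and 36.0, 15.7 and 14.6 CPM at 8 dpc, with -0.71 (SE 0.72, unadjusted p = 0.34 by edgeR). From 8 to 16 dpc, Sgk1 rose by 3.83 (adjusted p = 0.00036 by edgeR), Pdk4 by 4.49 (adjusted p = 0.0056 by edgeR) and H6pd by 1.10 (adjusted p = 0.013 by edgeR) on the log2 scale, whereas Slc45a3 differed by 0.59 (adjusted p = 0.38 by edgeR). Without single livers the difference ranged from 3.55 to 4.54 for Sgk1 and from 2.60 to 5.03 for Pdk4, lowest without the second 16 dpc liver, with both called in all 6 fits. For H6pd it ranged from 0.88 to 1.30, and the call was lost in 3 of 6. The glycolysis and gluconeogenesis list had 0 higher and 1 lower of 23 at an unadjusted p under 0.05, against 3.23% and 3.37% of all genes. It had a median of -0.13 (-0.13 with 1 higher and 4 lower without the third 8 dpc liver, and -0.25 with 0 higher and 1 lower without the first NP liver). The glycogen list had one of -0.066 (-0.14 with 0 higher and 1 lower without the third 8 dpc liver, and -0.18 with 0 higher and 1 lower without the first NP liver). Aldoa was at 84.5, 75.3 and 78.2 CPM at NP and 55.5, 48.7 and 58.6 CPM at 8 dpc with no overlap, and Gys2, the liver glycogen synthase, at 84.4, 385 and 264 CPM at NP and 81.4, 53.4 and 131 CPM at 8 dpc. Among the other genes named for large differences, Tsku was at 91.8, 101 and 141 CPM at NP and 5.30, 13.6 and 54.4 CPM at 8 dpc, Rgs16 at 97.5, 290.3 and 204 CPM at NP and 69.9, 22.4 and 72.4 CPM at 8 dpc and Pcp4l1 at 29.9, 17.6 and 12.9 CPM at NP and 4.31, 4.94 and 7.02 CPM at 8 dpc. Tsku encodes a secreted leucine-rich protein and Rgs16 a regulator of G-protein signalling. Of lower abundance, Bik was at 2.42, 3.66 and 2.59 CPM at NP and 0.873, 0.595 and 0.78 CPM at 8 dpc, Synj2 at 2.56, 4.51 and 4.55 CPM at NP and 0.815, 0.893 and 1.61 CPM at 8 dpc, Ntrk2 at 2.08, 2.86 and 7.62 CPM at NP and 1.40, 1.79 and 0.468 CPM at 8 dpc and Defb1 at 4.57, 3.66 and 3.64 CPM at NP and 1.28, 0.238 and 1.72 CPM at 8 dpc, all lower without overlap, as the naming rule required. The log2 fold change of Ntrk2 was -1.78, and -1.03 without the third NP liver.

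Of the endoplasmic reticulum stress list, 17 of 25 members were above 0 (49.0% of all genes), with 0 higher and 1 lower at an unadjusted p under 0.05 (3.23% and 3.37% of all genes) and a median of 0.20. Without the first NP liver 23 were above 0 (51.2% of all genes), 9 of them at that level (6.41% of all genes), with a median of 0.82. Without the third 8 dpc liver the median was 0.39, with 0 higher and 1 lower. Summed, the list was at 10651, 3454 and 3418 CPM at NP and 4241, 8900 and 4673 CPM at 8 dpc. The first NP liver was the highest of its group and the second 8 dpc liver the highest of the other. Herpud1, of endoplasmic reticulum-associated degradation, was the lower one, at 780.2, 463 and 512 CPM at NP and 186, 398 and 364 CPM at 8 dpc.

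**Figure D5:**
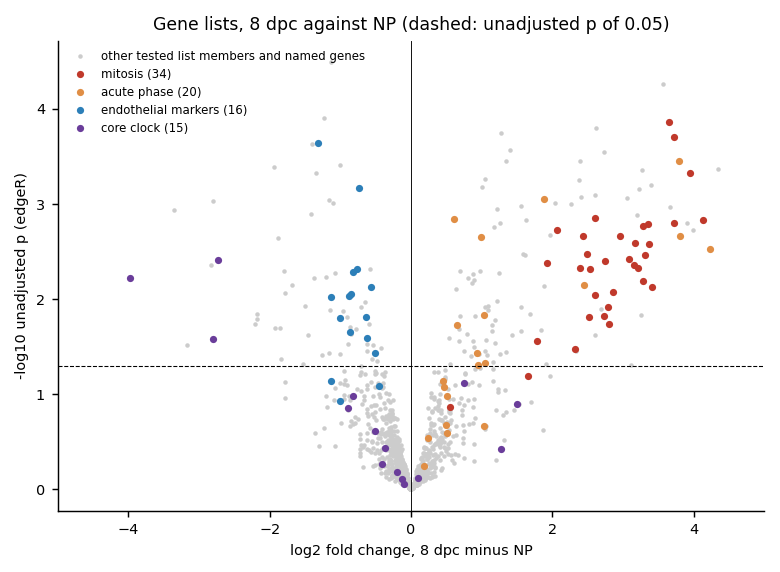
The log2 fold change (8 dpc minus NP) is plotted against the -log10 unadjusted p of edgeR for tested list members and named genes, with 4 lists coloured and genes with no count at NP left out. The dashed line is an unadjusted p of 0.05, above which lie 32 of 34 mitosis genes at the right, 12 of 20 acute phase genes and 13 of 16 endothelial markers at the left.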

How the data were processed

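Poly(A) RNA libraries (TruSeq Stranded mRNA) of 15 livers were analysed. The deposited values are raw read counts per gene for 21702 genes. Per the submitters' processing notes and the methods, the authors trimmed reads with cutadapt 1.14, aligned them with HISAT2 2.1.0 to mm10 and counted uniquely mapped reads per protein-coding gene of GENCODE with HTSeq 0.12.4. The strand setting of the counting is not given in the sources used here. Where 2 gene IDs shared a symbol, the one with more counts was used.

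Genes were kept by filterByExpr (minimum count 10), leaving 12172, scaled by TMM and tested with the quasi-likelihood test of edgeR 4.0.16 (R 4.3.3) on all 15 libraries without a replicate term, with 10 residual degrees of freedom. DESeq2 1.42.0 and limma 3.58.1 voom were alternatives, besides other filters, scaling, a replicate block and leaving out each library. Adjusted p-values are Benjamini-Hochberg over all genes tested. The exact permutation test was run in SciPy 1.17.1 (Python 3.11.15) on log2(CPM + 0.5). Groups were taken from sample titles. The 16 dpc AAV8-p21 columns carry numbers that match no title and were used only as a group. Replicates of a group differed beyond counting noise (chi-square per degree of freedom 16.8 to 138). In simulated 8 dpc versus NP data with 200 of 11994 genes changed 4-fold, edgeR recovered 97.0% with 8 other calls. DESeq2, on 12172 genes, recovered 98.0% with 25 other calls on 15 libraries and 98.0% with 46 on 6. The changed genes were drawn from the more abundant ones, and no simulated liver was made to stand apart from its group. These shares therefore do not measure what could be found in these livers or at lower levels.

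The named genes are Mki67, Hmmr, Cdkn1a, Slc45a3, Sgk1, H6pd and Pdk4, the 12 largest differences in each direction among DEGs or, where there were fewer, among genes with an unadjusted p under 0.05, groups that do not overlap and a mean of at least 1 CPM, up to 4 genes per list by smallest p, and the largest DEG in each direction of the other contrasts. One gene under this rule is not reported here. Genes named beyond this rule are said to be picked afterwards or are listed members. The comparison, its members and the gene lists were chosen with earlier results of these data known. Gene positions are from a GENCODE annotation of GRCm38, the build of mm10.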

Additional observations from a re-analysis of the deposited data

Results flagged for a closer look

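The effect of pregnancy against the same NP livers differed between 16 and 8 dpc, by the direct test of 16 against 8 dpc, for 658 genes (edgeR DEGs). Among the genes named above by size, at most 12 in each direction, and the 2 proliferation markers, 9 did, all lower at 16 dpc. Over all genes, 2.88% fell and 2.53% rose. All of the 9 but Hmmr and Ntrk2 were named for being higher at 8 dpc, which favours a fall from those same livers. The log2 differences of the cell cycle genes were -3.44 for Hmmr, -3.32 for Cenpf, -3.38 for Kif20a, -2.44 for Ect2, -3.09 for Knstrn and -3.39 for Knl1. Those of the others were -4.98 for Prtn3, -3.43 for Cyp4a12a and -5.02 for Ntrk2. Each of the 9 lost its call in 4 or 5 of the 6 fits without single livers, and each kept its direction in all 6. The log2 difference then ranged from -5.12 to -2.85 for Hmmr, -4.52 to -2.81 for Cenpf, -4.39 to -2.95 for Kif20a, -2.94 to -1.94 for Ect2, -3.87 to -2.74 for Knstrn and -3.97 to -2.98 for Knl1. It ranged from -6.15 to -2.73 for Prtn3, smallest without the second 8 dpc liver, -5.47 to -2.95 for Cyp4a12a, largest without the third 16 dpc liver, and -7.21 to -4.53 for Ntrk2, largest without the first 16 dpc liver. The 8 dpc livers enter both sides of this reading, so it is not independent of the comparison with NP. The largest differences of the contrast were at low levels. Serpina16 had no count in any NP or 8 dpc AAV8-null liver and 14.3, 9.50 and 1.42 CPM at 16 dpc, and Smim22 was at 2.39, 2.38 and 1.66 CPM at 8 dpc and had no count at 16 dpc.

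At 8 dpc, 3 genes differed between AAV8-p21 and AAV8-null livers (edgeR DEGs), all lower in AAV8-p21 and all on chromosome 6. The series holds no NP AAV8-p21 livers. A difference in the effect of pregnancy therefore cannot be told apart from one present before it. C1s2, a complement protease, lies at chr6:124624625-124636085 and was at 29.0, 23.8 and 22.4 CPM in AAV8-null and 0.0494, 0.0571 and 0.07 CPM in AAV8-p21 livers. C1rb, its partner protease, lies at chr6:124570294-124581171 and was at 13.7, 12.9 and 8.999 and 0.296, 0.171 and 0.07 CPM, respectively. Pianp lies at chr6:124996694-125003096 and was at 2.74, 3.63 and 1.46 and 0.197, 0.228 and 0.28 CPM. The NP AAV8-null livers held C1s2 at 8.73, 11.5 and 12.7 CPM. C1rb and Pianp were picked after their values were seen, and C1rb and C1s2 have close copies among which reads may be split.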

How the results depend on the processing

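The count of DEGs between 8 dpc and NP was 0 by edgeR under other size factors, both other filters, the 6 libraries alone and an adjusted p under 0.05 without the fold limit. DESeq2 called 53 on 15 and 72 on 6 libraries, and limma voom with sample weights 883. Leaving out single livers gave 0 to 91, with 91 without the third 8 dpc liver, 2 without the first NP liver and 0 otherwise. For 16 against 8 dpc the count of 658 became 316 with edgeR on 6 libraries and 1029 with voom, and 248 to 1039 without single livers (319 and 402 without 16 dpc replicates 2 and 3, 274, 248 and 1039 without 8 dpc replicates 1, 2 and 3). For AAV8-p21 against AAV8-null at 8 dpc the count of 3 became 26 and 81 with DESeq2 on 15 and 6 libraries, 0 under a filter of 10 counts in each library, 5 with edgeR on 6 libraries and 88 with voom, and 2 to 38 without single livers (38 without the third AAV8-null liver, 5 without the third AAV8-p21 liver). The causes were not tested.

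Same-numbered samples did not pair: for 8 dpc and NP their deviations correlated at 0.18, -0.53 and 0.33, and not every sample correlated best with its own number. In the 12 libraries with usable numbers, the replicate block gave 0, 559 and 2 DEGs for the 3 contrasts, against 0, 608 and 2 without the block.

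Of 201 named genes, 9 changed sign in 10 of 2960 alternative values, and none of the 9 had an unadjusted p under 0.05 with all libraries. Leaving out single livers, the log2 fold change ranged from -1.70 to 0.74 for Hspa1b, -0.62 to 0.079 for Dnajb1 and -1.25 to 0.71 for Hspb1, each highest without the first NP liver. It ranged from -0.61 to 0.047 for Slc2a5, highest without the second NP liver, and from -1.23 to 0.042 for Cd3d, highest without the second 8 dpc liver. With voom it became 0.15 for Hspa1b, 0.82 for Nkg7, 0.046 for mt-Cytb, 0.063 for mt-Nd4 and 0.46 for Mup18. In 207 values a gene passed the adjusted threshold that it had missed. At this depth 12172 of 21702 genes passed the count filter with all libraries, and 16077 were tested without it.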

Other observations

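Among the 41 genes that DESeq2 on all 15 libraries called higher at 8 dpc were further cell cycle genes. Nek2, a centrosome kinase, was at 2.49, 0.975 and 0.629 CPM at NP and 12.4, 10.3 and 4.58 CPM at 8 dpc. Smc4, a condensin subunit, was at 7.27, 6.27 and 8.95 CPM at NP and 27.0, 22.4 and 10.1 CPM at 8 dpc. Kif22, a chromosome-arm kinesin, was at 0.762, 0.487 and 0.21 CPM at NP and 5.24, 5.89 and 1.20 CPM at 8 dpc, and Cip2a, an inhibitor of the phosphatase PP2A, at 1.45, 0.67 and 1.05 CPM at NP and 8.26, 6.91 and 1.61 CPM at 8 dpc. In each of these the third 8 dpc liver was the lowest of its group and still above the NP livers. Genes outside the cell cycle included Slc41a2, a magnesium transporter, at 14.0, 1.95 and 2.66 CPM at NP and 22.7, 60.4 and 29.3 CPM at 8 dpc, Atp11a, a lipid flippase, at 12.7, 4.39 and 4.06 CPM at NP and 28.6, 64.4 and 16.3 CPM at 8 dpc, and Tars, the threonyl-tRNA synthetase, at 62.2, 46.6 and 53.6 CPM at NP and 118, 120.3 and 98.3 CPM at 8 dpc. In 8 dpc AAV8-p21 livers Slc41a2 was at 50.3, 72.4 and 36.8 CPM and Hacl1 at 930.3, 909 and 631 CPM, whereas Nek2 was at 0.642, 0.97 and 1.82 CPM. These genes were picked from the calls after their values were seen.

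The 12 genes called lower by DESeq2 were Wnt2, Bik, Shank3, Tmem204, Atp2b4, Slc43a3, Cd207, Cavin2, Arhgef10, Fam174b, Sult2a1 and Lrrc32. Slc43a3, a purine nucleobase transporter, was at 24.9, 36.8 and 41.4 CPM at NP and 15.1, 11.02 and 17.9 CPM at 8 dpc, and Shank3, a scaffold protein, at 3.95, 7.74 and 6.99 CPM at NP and 1.63, 2.14 and 3.23 CPM at 8 dpc. AAV8-p21 livers of that day held Slc43a3 at 17.4, 14.7 and 22.1 CPM and Shank3 at 3.06, 3.25 and 2.73 CPM.

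Activin A subunit gene Inhba was higher without overlap, at 3.32, 3.47 and 4.41 CPM at NP and 7.80, 7.68 and 9.41 CPM at 8 dpc, with 1.15 (SE 0.45, unadjusted p = 0.022 by edgeR). Bmp2 and Bmp6, endothelial signals to hepatocytes in iron regulation, were lower, with Bmp2 at 11.01, 24.9 and 22.0 CPM at NP and 10.5, 5.48 and 15.9 CPM at 8 dpc and Bmp6 at 2.56, 5.85 and 6.01 CPM at NP and 1.51, 1.85 and 3.797 CPM at 8 dpc, and their groups overlapped. Nr1i3, the receptor CAR, was lower without overlap at 279, 390.3 and 422 CPM at NP and 212, 144 and 247 CPM at 8 dpc, with -0.86 (SE 0.34, unadjusted p = 0.023 by edgeR). Apoe was at 17977, 14462 and 13726 CPM at NP and 11179, 10517 and 10018 CPM at 8 dpc, lower without overlap.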
